A study of Mus musculus with 43 samples.

Results

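The Ifi200 cluster is a run of interferon-inducible genes on mouse chromosome 1 that lies in an interval linked to lupus in several mouse crosses. Its genes Ifi202b, Ifi203, Ifi204, Ifi205, Mndal, Pyhin1 and Aim2 were followed in RNA sequencing of mouse back skin, and 6 of these 7 names are among the 23256 gene rows of the deposited table. Pyhin1 has no row under that name. RefSeq lists Pyhin1 as a synonym of Ifi209, which does have a row and is described below with the other cluster genes. All 6 members passed the filter on low values (4 or more libraries at 10 or above), and so did 19170 genes in all.

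The 43 libraries came from back skin of female mice aged 10 to 13 weeks and formed 9 groups, from 3 strains and 3 regimens of ultraviolet B light (UVB). NZM is NZM2328, the lupus-prone line that the series title names. Neither of the other strain names is explained in the labels. In lupus research iNZM stands for the NZM2328 line with the receptor for type I interferon deleted, and which strain WT is was not given in the sources used here. The transcript of that receptor's first chain, Ifnar1, was lower in iNZM than in NZM under every regimen, by a log2 difference of -1.10 ± 0.14 (SE) without UVB, -1.04 ± 0.13 after acute and -1.13 ± 0.13 after chronic UVB (limma adjusted p from 7.57e-06 to 5.62e-05). Acute UVB was a single exposure to 300 mJ/cm2, chronic UVB was 100 mJ/cm2 on each of 5 days, and biopsies were taken 24 hours after the last exposure. The unexposed iNZM and WT groups held 4 libraries each and the other groups 5 each. The labels do not state that each library came from a separate animal, so p-values may measure a spread that is partly technical. Reads from all 3 strains were mapped to mm10, and each strain's own sequence at the cluster was not analysed here.

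Libraries held from 18493566 to 37756660 reads assigned to genes, with a median of 24442363. In 9 libraries hair follicle genes stood far above the others, with a mean centred log2 score above 5: library 5 of NZM and libraries 6 and 49 of iNZM after acute UVB, libraries 17, 55 and 56 of NZM and libraries 22, 24 and 25 of iNZM after chronic UVB. No unexposed and no WT library was among them, so each member call and each ratio that rests on them is also given without them. In whole skin, fewer cells of a type and less RNA per cell cannot be told apart.

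Proteins of this family (PYHIN proteins) pair a HIN domain, which binds DNA, with a pyrin domain, which binds other pyrin proteins. Type I interferon acts through its receptor on target genes, many of which hold interferon-stimulated response elements in their upstream regions. Aim2 senses DNA in the cytosol and recruits the adaptor Pycard (ASC) and caspase-1 to form an inflammasome. Ifi202b carries HIN domains but no pyrin domain and can block Aim2, and its expression differs between mouse strains, which made it a candidate lupus gene. Ifi203, Ifi204, Ifi205 and Mndal are mostly nuclear PYHIN proteins that are prominent in cells of the myeloid lineage.

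In the annotation GENCODE vM21 on build GRCm38, the build that mm10 stands for, the members span chr1:173350879-174031810, 680.9 kb. Aim2 (ENSMUSG00000037860.15) lies at chr1:173350879-173466040 on the plus strand. The other 5 lie on the minus strand: Ifi204 (ENSMUSG00000073489.6) at chr1:173747293-173766943, Mndal (ENSMUSG00000090272.8) at chr1:173849126-173942491, Ifi203 (ENSMUSG00000039997.16) at chr1:173920407-173942672, Ifi202b (ENSMUSG00000026535.9) at chr1:173962568-173982744 and Ifi205 (ENSMUSG00000054203.7) at chr1:174011998-174031810. The spans of Mndal and Ifi203 overlap on the same strand. Exons of any other gene on that strand cover 4.3% of the exonic bases of Mndal and 0.6% of those of Ifi203. Stretches of 151 bases, the read length, that also occur in transcripts of other genes made up 12.6% of Ifi205 and 6.71% of Ifi204, shared with Ifi211, 1.56% of Mndal, 0.8% of Ifi203 and 0% of Ifi202b and Aim2. How the authors counted such reads is not given in the sources used here, so the values of Ifi204 and Ifi205 are the least certain in this respect.

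The upstream windows of Ifi203 and Mndal are shown because these 2 genes were called lower in iNZM than in NZM, and those of Ifi205 and Ifi202b because these genes were not. Each is the 250 bases before a RefSeq start site on GRCm38.p6, in the C57BL/6J reference and not in the strains sequenced here, written 5′ to 3′ on the gene's own strand and ending at the base before the start. Capitals mark the core of the interferon-stimulated response element, searched on both strands as 2 copies of GAAA with any 2 bases between them.
Ifi203, second start site, chr1:173942493-173942742, minus strand: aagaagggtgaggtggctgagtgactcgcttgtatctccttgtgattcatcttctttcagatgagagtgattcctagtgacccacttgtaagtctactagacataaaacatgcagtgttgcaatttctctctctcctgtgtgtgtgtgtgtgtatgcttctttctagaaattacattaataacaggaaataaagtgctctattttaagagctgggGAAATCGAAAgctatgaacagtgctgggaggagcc
Mndal, first start site, chr1:173880188-173880437, minus strand: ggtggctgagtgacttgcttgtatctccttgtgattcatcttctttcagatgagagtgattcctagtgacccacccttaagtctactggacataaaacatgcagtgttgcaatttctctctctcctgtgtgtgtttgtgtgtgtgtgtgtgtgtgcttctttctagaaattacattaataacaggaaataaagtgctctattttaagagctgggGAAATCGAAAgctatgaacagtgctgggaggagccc
Ifi205, chr1:174031756-174032005, minus strand: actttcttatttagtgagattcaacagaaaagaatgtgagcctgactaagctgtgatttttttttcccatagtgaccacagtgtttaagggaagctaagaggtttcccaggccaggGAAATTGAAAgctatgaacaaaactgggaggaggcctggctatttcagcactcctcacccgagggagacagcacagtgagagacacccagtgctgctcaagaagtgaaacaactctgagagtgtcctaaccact
Ifi202b, chr1:173982845-173983094, minus strand: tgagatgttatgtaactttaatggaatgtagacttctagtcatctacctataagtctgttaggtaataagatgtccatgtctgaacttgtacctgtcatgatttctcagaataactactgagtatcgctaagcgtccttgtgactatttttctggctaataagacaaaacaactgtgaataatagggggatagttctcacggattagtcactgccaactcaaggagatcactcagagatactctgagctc
The Ifi203 and Mndal windows match at 233 of 249 aligned bases (93.6%) and hold the same 10 letters, GAAATCGAAA, ending 25 and 26 bases before the start. In Ifi205 the letters are GAAATTGAAA, 124 bases before the start. RefSeq windows were found for 5 of the 6 members, 7 windows in all, and the response element core was in 2.98% of the 32851 windows of the whole table. A second Mndal window holds it on the other strand (TTTCTCTTTC), whereas the first Ifi203 window and those of Ifi202b and Aim2 do not hold these letters. For the Ifi202b window and for an Ifi203 window, the first bases after the start were not found in that gene's GENCODE transcripts. The Mndal windows lie inside the span that GENCODE gives Mndal, whose end at chr1:173942491 adjoins the Ifi203 window shown. Which start each gene used in this skin was not tested. A match describes letters in a reference window and is neither a bound site nor a cause of the levels below.

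No library was at 0 for any member, and values are normalised read counts, the reads of a gene divided by 1 size factor per library. Across the 43 libraries Ifi203 ranged from 10.6 to 2212, a 209-fold range, Ifi202b from 28.1 to 2619, Ifi204 from 49.1 to 3493, Ifi205 from 39.5 to 2752, Mndal from 27.9 to 1143 and Aim2 from 19.8 to 251. Per kilobase of exon, unexposed NZM skin held 153 ± 50.8 reads (SD, n = 5) of Ifi202b, 116 ± 49.0 of Mndal, 108 ± 90.0 of Ifi204, 86.4 ± 51.2 of Ifi205, 56.2 ± 19.3 of Ifi203 and 17.5 ± 3.60 of Aim2. Aim2 was thus the lowest member per length in that group, and the middle 3, Mndal, Ifi204 and Ifi205, did not differ beyond their spread.

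The order of the 9 groups differed between members. For Ifi203 the lowest means were the 3 iNZM groups, and the gap from unexposed NZM (377 ± 129.6) down to unexposed iNZM (176 ± 19.4) exceeded the larger SD, with no overlap of the libraries. For Mndal the same 3 groups were lowest, and the step from WT after chronic UVB (322 ± 81.9) to unexposed iNZM (161 ± 18.0) exceeded the larger SD without overlap. For Ifi204 and Ifi205 the highest mean was WT after acute UVB and the lowest iNZM after chronic UVB, and neighbouring groups overlapped throughout the order. Ifi202b was highest in WT after acute UVB (1751 ± 536) and lowest in iNZM after chronic UVB (90.1 ± 60.0). Aim2 had its highest mean in NZM after chronic UVB (184 ± 53.3) and its lowest in unexposed WT (60.0 ± 38.4).

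**Figure D1:**
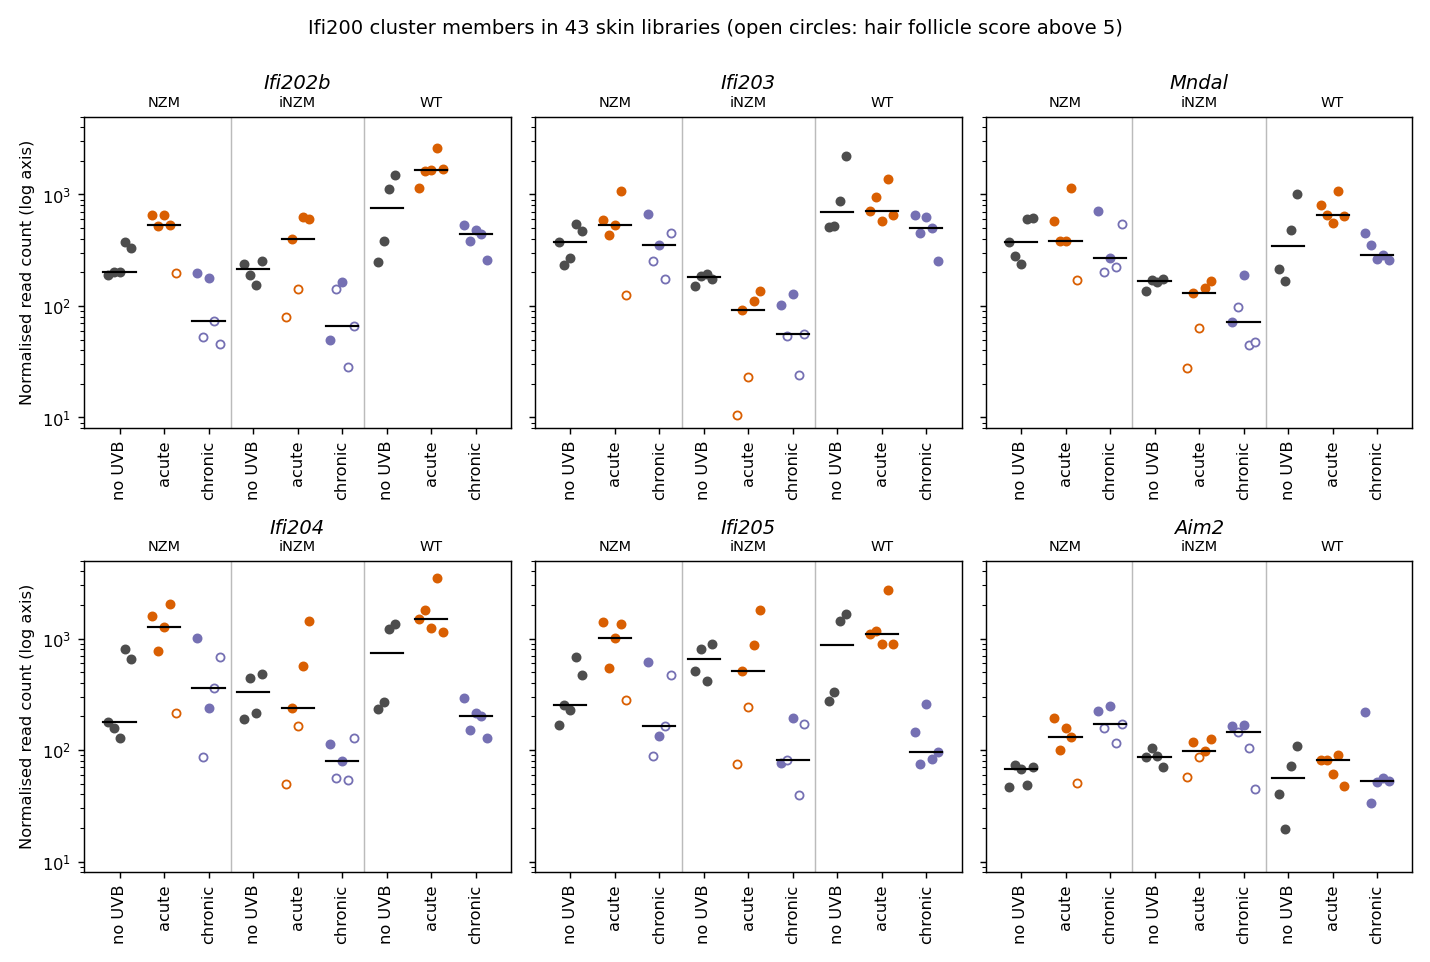
Normalised read count (log axis) of the 6 members in each of the 43 libraries, by strain and UVB regimen. Each point is 1 library, open circles are the 9 libraries with a hair follicle score above 5, and black lines are group medians. Ifi203 and Mndal are low in the iNZM groups, Ifi202b is high in WT, and Aim2 is highest in NZM after chronic UVB.

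Differences were tested with limma on log2(value + 1) over all 43 libraries, and adjusted p-values are Benjamini-Hochberg over the 19170 genes, with a call at an adjusted p below 0.05. The members were tested in 19 comparisons, 114 tests in all, of which 23 were called. Folds on this scale are slightly understated at low values.

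The comparison of iNZM with NZM asks how the cluster's expression differs in the lupus-prone line when the type I interferon receptor is altered, as far as the use of the strain's name in the field gives it. Ifi203 and Mndal were lower in iNZM than in NZM after both acute and chronic UVB, and no other member passed the test. After acute UVB the Ifi203 values were 587, 435, 531, 1080.5 and 124 in NZM and 10.6, 92.5, 23.2, 109.9 and 137 in iNZM. The lowest NZM library lay within the iNZM range and the other 4 above it, and that library was among those with high hair follicle genes. The log2 difference was -3.10 ± 0.54 (SE, limma adjusted p = 0.00158). For Mndal the values were 579, 381, 383, 1143 and 173 in NZM and 27.9, 132, 63.7, 144 and 168 in iNZM. These groups did not overlap, although the lowest NZM and the highest iNZM library lay close together. The difference was -2.29 ± 0.47 (limma adjusted p = 0.0172). Called genes made up 0.224% of all genes in this comparison and lower ones 0.219%, against 2 of the 6 members, both lower.

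After chronic UVB, Ifi203 had values of 661, 252, 351, 176 and 451 in NZM and 102, 53.4, 128, 23.9 and 55.7 in iNZM, and the groups did not overlap. Mndal had values of 705, 199.6, 271, 221 and 538 in NZM and 71.3, 98.7, 188, 44.7 and 47.0 in iNZM, again without overlap. On the log2 scale Ifi203 differed by -2.43 ± 0.54 (SE, limma adjusted p = 0.0243) and Mndal by -2.12 ± 0.47 (limma adjusted p = 0.027), in a comparison where 0.428% of all genes were called and 0.412% were lower. Without UVB neither gene was called. Ifi203 values were 371, 235, 268, 540.1 and 469 in NZM and 150.3, 187, 195 and 174 in iNZM, a difference of -1.03 ± 0.57 (limma adjusted p = 0.932). Mndal values were 372, 279, 237, 601 and 615 in NZM and 135, 170.2, 165 and 175 in iNZM, a difference of -1.28 ± 0.50 (limma adjusted p = 0.783). Both genes had all 4 iNZM libraries below all 5 NZM libraries, but the share of all genes separated in this way was not computed. By limma, a different measure, 0.0313% of all genes were called in this comparison.

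These calls depended on the fit. With only the 2 compared groups in the fit, limma adjusted p became 0.879 and 0.965 after acute UVB and 0.15 and 0.198 after chronic UVB for Ifi203 and Mndal. With a term for samples numbered 46 or above, which the labels do not explain, it was 0.0587 and 0.0632 after chronic UVB. Without the 9 libraries with high hair follicle genes, Ifi203 after acute UVB differed by -2.46 (limma adjusted p = 0.00221), and Mndal by -1.91 (adjusted p = 0.15). After chronic UVB, where 2 libraries remained in each group, the values were -2.07 (limma adjusted p = 0.0769) for Ifi203 and -1.91 (adjusted p = 0.146) for Mndal. Of the single libraries, leaving out NZM library 1 or 47 or iNZM library 6 or 49 raised the limma adjusted p of Mndal after acute UVB to between 0.0722 and 0.173, while Ifi203 kept its call there. After chronic UVB the Ifi203 call was lost without NZM library 54, 18 or 56 or iNZM library 22 or 24 (0.0573 to 0.175), and the Mndal call without NZM library 54 or 56 or iNZM library 57 or 24 (0.0908 to 0.188).

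Interferon-stimulated genes moved with Ifi203 and Mndal. Of 41 genes from a list of this response, 22 were lower and 0 higher in iNZM after acute UVB, 22 lower and 0 higher after chronic UVB, and 4 lower without UVB. Their median log2 difference was -2.35 after acute UVB and -2.10 after chronic UVB, against 0.00 and 0.00 over all genes tested. Of 14 macrophage markers 0 were lower after acute and 2 after chronic UVB, and of 10 monocyte markers 1 and 3 were lower. Their median log2 differences after acute and chronic UVB were -1.05 and -2.47 for macrophage and -1.24 and -2.75 for monocyte markers. Without UVB these medians were 1.26 and 1.17. The summed macrophage markers ranged from 5060.3 to 33524 in NZM and from 1741 to 42726 in iNZM after acute UVB, and no marker of that list was at 0 throughout a group. After chronic UVB the sums ranged from 3949.6 to 24024 in NZM and from 1235 to 5417 in iNZM. With the macrophage marker score of each library as a covariate, an alternative chosen after seeing the data, the acute difference was -2.31 (limma adjusted p = 0.00015) for Ifi203 and -1.67 (adjusted p = 0.0195) for Mndal. After chronic UVB it was -0.90 for Ifi203 and -0.91 for Mndal (limma adjusted p = 0.815 and 0.815). With the score of the interferon-stimulated genes as the covariate instead, also chosen after seeing the data, none of the 4 differences was called, at -0.46 and 0.26 after acute and 0.18 and 0.40 after chronic UVB. That score is itself lower in iNZM, so it removes part of the strain difference by construction. The macrophage score, whose markers had negative medians after UVB, can do so as well. The part of either cell makeup or the interferon response in the difference was not tested.

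**Figure D2:**
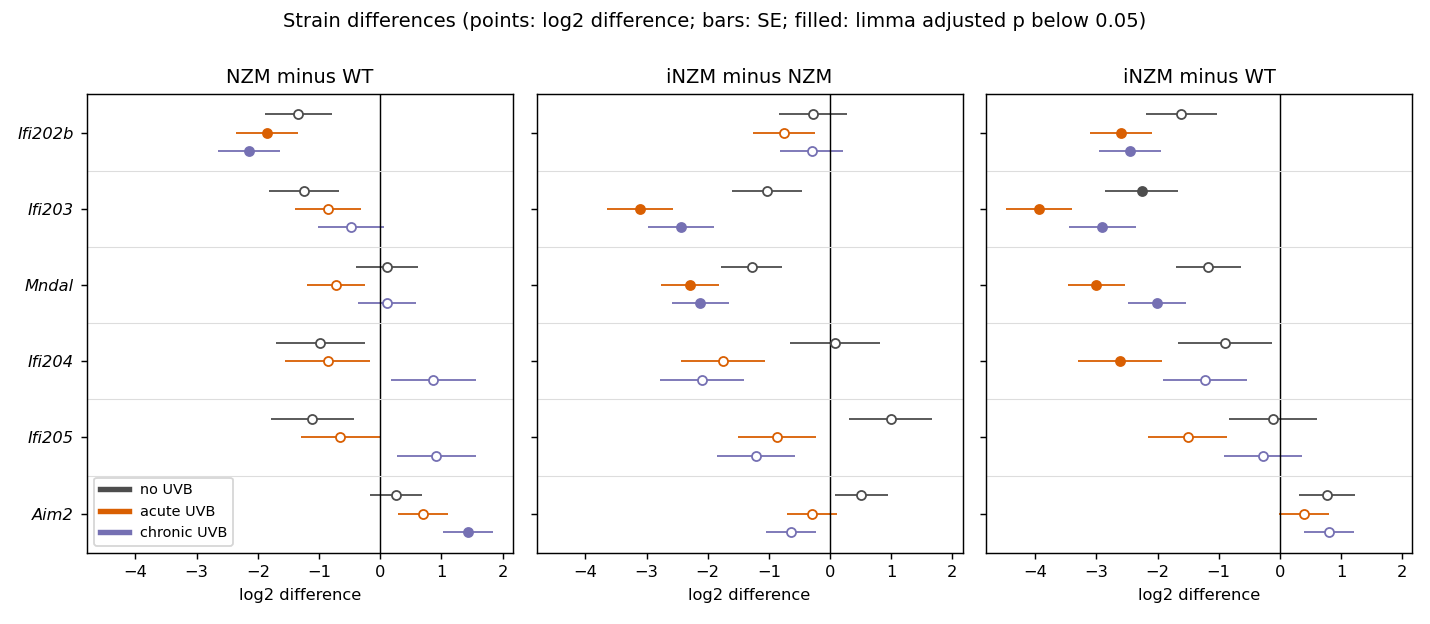
Log2 differences between strains under each UVB regimen for the 6 members. Points are limma estimates, bars are SE, and filled points have an adjusted p below 0.05. Ifi203 and Mndal are filled below 0 in iNZM minus NZM after both UVB regimens, and Ifi202b is filled below 0 in NZM minus WT after both.

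Against WT, iNZM skin had 8 member calls over the 3 regimens, all lower in iNZM: 1 without UVB, 4 after acute and 3 after chronic UVB, where 3.94%, 12.5% and 8.43% of all genes were lower and 9.78%, 24.7% and 14.5% were called in either direction. The log2 difference of Ifi203 was -2.26 ± 0.60 (SE, limma adjusted p = 0.0106) without UVB, -3.94 ± 0.54 (adjusted p = 9.17e-07) after acute and -2.90 ± 0.54 (adjusted p = 0.000187) after chronic UVB. In none of the 3 did the Ifi203 libraries of iNZM and WT overlap, since all 14 iNZM values lay below the lowest WT value, 253. Mndal differed by -3.0 ± 0.47 after acute UVB and -2.01 ± 0.47 after chronic UVB (limma adjusted p = 1.19e-05 and 0.00324). Leaving out the 9 libraries with high hair follicle genes, Ifi203 differed by -2.26 without UVB, -2.84 after acute and -2.04 after chronic UVB (limma adjusted p = 5.96e-05, 4.1e-06 and 0.00189), and Mndal by -2.29 and -1.43 after acute and chronic UVB (adjusted p = 0.000517 and 0.0464). With a term for each library's hair follicle score the chronic difference was -1.74 for Ifi203 (limma adjusted p = 0.00434) and -1.19 for Mndal, which lost its call (adjusted p = 0.0643). The unexposed Ifi203 call was lost without WT library 45, the highest of its group at 2212 (limma adjusted p = 0.0807). Of the 41 interferon-stimulated genes 18, 40 and 37 were lower in iNZM than in WT without, after acute and after chronic UVB. Cell type markers moved too: 6 of 10 monocyte and 5 of 6 endothelial markers were lower in iNZM after acute UVB. After chronic UVB 4 monocyte, 4 endothelial, 5 of 13 dendritic and Langerhans cell, 3 of 14 macrophage and 4 of 11 keratinocyte markers were lower, and 17 of 28 hair follicle genes were higher. The part of these cells in the member differences was not tested.

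Between NZM and WT, neither Ifi203 nor Mndal was called under any regimen in the main fit. Ifi203 differed by -1.24 ± 0.57 (SE) without UVB, -0.85 ± 0.54 after acute and -0.47 ± 0.54 after chronic UVB (limma adjusted p = 0.147, 0.337 and 0.696). Without UVB, DESeq2 on the recovered reads did call Ifi203 lower in NZM (-1.45, adjusted p = 0.0332). So did limma with sample quality weights (-1.15, adjusted p = 0.0347). Mndal differed by 0.11 ± 0.50, -0.72 ± 0.47 and 0.11 ± 0.47. Unexposed WT libraries varied widely, with Ifi203 values of 513, 525, 866 and 2212.

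Ifi204 and Ifi205 were not called between iNZM and NZM under any regimen. Unexposed Ifi205 values were 167, 255, 229, 686 and 468 in NZM and 509.9, 810.0, 419.9 and 900.0 in iNZM, overlapping groups that differed by 0.99 ± 0.68 on the log2 scale (SE, limma adjusted p = 1). After acute UVB the values were 1413, 548, 1012, 1358 and 279 in NZM and 75.2, 509, 244, 867 and 1813 in iNZM. The highest of all 10 was an iNZM library, library 10, in which Ifi203 was 137. The difference was -0.87 ± 0.64 after acute and -1.21 ± 0.64 after chronic UVB (limma adjusted p = 0.96 and 0.559). Ifi204 differed by 0.08 ± 0.73, -1.75 ± 0.69 and -2.09 ± 0.69 without, after acute and after chronic UVB (limma adjusted p = 1, 0.96 and 0.187). DESeq2 on the recovered reads called Ifi204 lower after chronic UVB (-2.47, adjusted p = 0.0137). A miss of the threshold does not show that these genes were alike in the 2 strains.

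Against WT after acute UVB, Ifi204 was lower in iNZM, with values of 1503, 1807, 1231, 3493 and 1134 in WT and 49.1, 238, 163, 565 and 1428 in iNZM. The groups overlapped through the highest iNZM library. The log2 difference was -2.61 ± 0.69 (SE, limma adjusted p = 0.00573), and it was -1.54 (adjusted p = 0.114) without the 9 libraries with high hair follicle genes and lost its call with only these 2 groups in the fit (adjusted p = 0.0526). Ifi205 differed by -1.51 ± 0.64 there (limma adjusted p = 0.0812), and was called without iNZM library 10 (-2.03, adjusted p = 0.0151).

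Whether Ifi203 and Mndal differed from Ifi205 in this respect was tested on the ratio of the 2 genes within each library, which any scaling of the whole library leaves nearly unchanged. The ratios were chosen after the values had been seen and use the libraries already compared, so they are no independent evidence. Adjusting over the tests that were run does not correct for that choice. The log2 ratio of Ifi203 to Ifi205 without UVB was 0.18 ± 0.58 (SD, n = 5) in NZM and -1.83 ± 0.55 (n = 4) in iNZM. After acute UVB it was -0.80 ± 0.45 in NZM and -3.04 ± 0.50 in iNZM, and the libraries did not overlap under either regimen. After chronic UVB the ratio was 0.61 ± 0.77 and -0.62 ± 0.71, with overlap. Two-sided exact permutation tests gave p = 0.0159, 0.00794 and 0.0317, or 0.0286, 0.0286 and 0.0408 adjusted over 9 such tests, where 0.00794 is the smallest that 5 against 5 libraries can give. For Mndal to Ifi205 the differences of the mean log2 ratio, iNZM minus NZM, were -2.27, -1.42 and -0.91 without, after acute and after chronic UVB (exact permutation p = 0.0159, 0.0159 and 0.0317, adjusted 0.0286, 0.0286 and 0.0408). Ifi205 shares 12.6% of its read-length stretches with Ifi211, and the part of such reads in the ratio was not tested. With those 9 libraries left out, 3 iNZM and 4 NZM libraries remained after acute UVB. Their Ifi203 to Ifi205 ratio differed by -2.33 and their Mndal to Ifi205 ratio by -1.78, both without overlap (exact permutation p = 0.0571 for each, the smallest these numbers allow). After chronic UVB 2 against 2 remained, with differences of -0.84 and -0.68 (exact permutation p = 0.667 and 0.333, where no p below 0.333 is possible). With all libraries, after chronic UVB both ratios rested on single libraries. Leaving out iNZM library 22, 23, 24 or 25 or NZM library 17 or 18 gave p = 0.0635 for Ifi203 to Ifi205 by the exact test, and so did leaving out iNZM library 57, 23 or 25 or NZM library 17, 18 or 55 for Mndal to Ifi205.

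**Figure D3:**
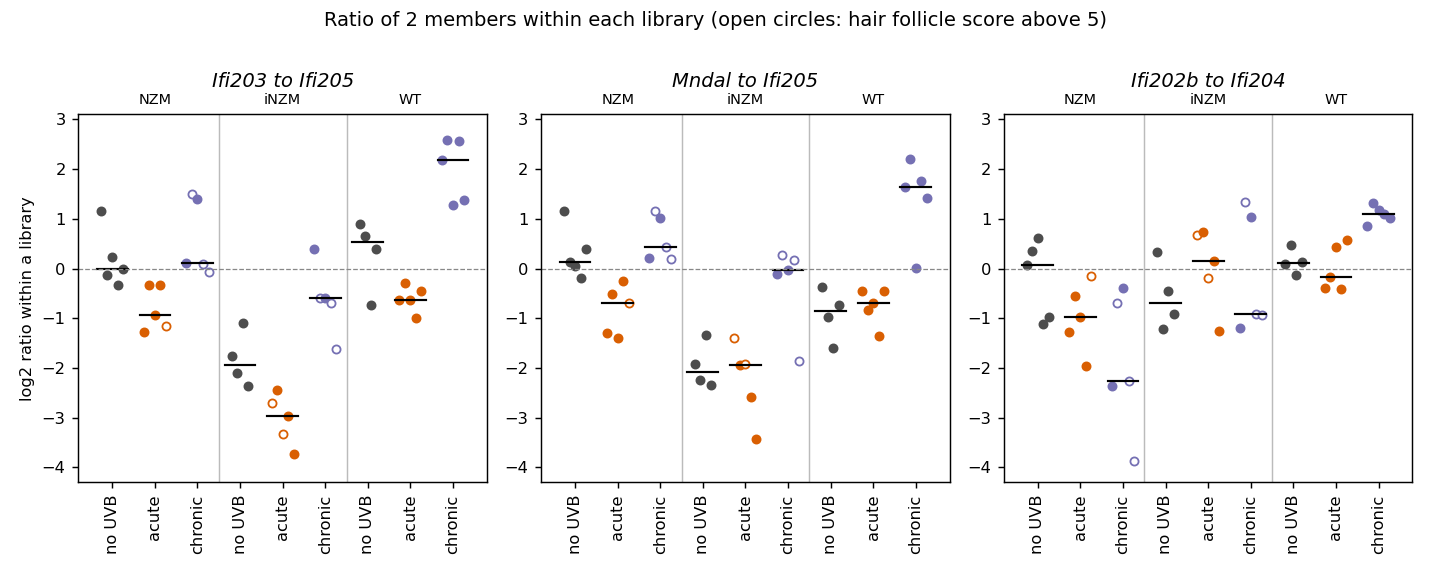
Log2 ratio of 2 members within each library, for Ifi203 to Ifi205, Mndal to Ifi205 and Ifi202b to Ifi204, by strain and UVB regimen. Points are libraries, open circles those with a hair follicle score above 5, and black lines are medians. The 5 iNZM libraries after acute UVB have the lowest Ifi203 to Ifi205 ratios, down to -3.72, and the 3 lowest Ifi202b to Ifi204 ratios are NZM libraries after chronic UVB.

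Ifi202b, the member without a pyrin domain, was lower in NZM than in WT after both UVB regimens. After acute UVB its values were 648, 521, 648, 527 and 196 in NZM and 1142, 1619.9, 1672, 2619 and 1701 in WT. All 5 WT libraries lay above all 5 NZM libraries, and the log2 difference was -1.85 ± 0.51 (SE, limma adjusted p = 0.0123). After chronic UVB the values were 198, 52.8, 179, 74.0 and 45.1 in NZM and 527, 379.6, 484, 438 and 260.1 in WT, again without overlap, and the difference was -2.14 ± 0.51 (limma adjusted p = 0.00523). Lower genes made up 5.08% of all genes after acute and 3.59% after chronic UVB, of 13.0% and 7.88% called in either direction. Without UVB the values were 189, 202, 200.0, 371 and 333 in NZM and 246, 381, 1117 and 1483 in WT. There the difference of -1.34 ± 0.55 was not called by limma (adjusted p = 0.0952), but it was by edgeR (-1.64, adjusted p = 0.0274) and DESeq2 (-1.64, adjusted p = 0.0111) on the recovered reads and by limma without WT library 41 (-1.78, adjusted p = 0.0315). In that comparison 15.0% of all genes were called. The WT values of 1117 and 1483 came from libraries 44 and 45. Their macrophage marker scores were 2.14 and 2.39, against -0.41 and -0.19 in WT libraries 41 and 43. Of 8 fibroblast markers 8 were lower in unexposed NZM than WT, and of 14 macrophage markers 3. Of 11 keratinocyte markers 6 were higher. The part of cell makeup in this difference was not tested.

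The acute difference of Ifi202b was lost without NZM library 5 (-1.53, limma adjusted p = 0.0598), which had high hair follicle genes, and it was -1.53 (adjusted p = 0.00477) without all 9 such libraries. The chronic difference was -1.10 (limma adjusted p = 0.188) without them, with NZM libraries 54 and 18 remaining, at 198 and 179. With a term for each library's hair follicle score the chronic difference was -1.15 and lost its call (limma adjusted p = 0.0824). The acute difference kept its call with that term (-1.79, limma adjusted p = 0.00122). After chronic UVB 13 of 28 hair follicle genes were higher in NZM than in WT and 0 lower. Relative to Ifi204 in the same library, in a ratio also chosen after its values had been seen, Ifi202b after chronic UVB had a log2 ratio of -1.92 ± 1.41 (SD, n = 5) in NZM and 1.09 ± 0.17 (n = 5) in WT, without overlap (two-sided exact permutation p = 0.00794, adjusted 0.0286). Ifi204 itself differed by 0.87 ± 0.69 (SE), NZM minus WT, after chronic UVB and was not called (limma adjusted p = 0.529). Part of that ratio difference thus lies in Ifi204. The ratio differed by -0.99 after acute UVB (exact permutation p = 0.0397, adjusted 0.0446, and 0.0635 or 0.0794 without any 1 of NZM libraries 1, 46, 3 and 47 and WT libraries 51, 13 and 15). It differed by -0.35 without UVB (p = 0.46 by the exact test). On leaving out the 9 libraries the ratio differed by -1.20 after acute UVB (exact permutation p = 0.0159, 4 NZM against 5 WT libraries) and by -2.47 after chronic UVB (exact permutation p = 0.0952, the smallest that 2 against 5 libraries can give). Against iNZM, WT skin was higher in Ifi202b too, with log2 differences of -2.60 ± 0.51 after acute and -2.45 ± 0.51 after chronic UVB (limma adjusted p = 0.000308 and 0.000919). Once the 9 libraries were left out these were -1.67 and -2.16 (limma adjusted p = 0.00522 and 0.00197), and with a term for each library's hair follicle score they were -2.30 and -1.47 (adjusted p = 4.81e-05 and 0.0244). Between iNZM and NZM the differences were -0.28 ± 0.55, -0.75 ± 0.51 and -0.30 ± 0.51, and none was called.

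Aim2, the cytosolic DNA sensor, was higher in NZM after chronic UVB. Its values were 46.7, 73.3, 67.0, 48.9 and 70.8 in unexposed NZM, 192, 99.4, 156, 132 and 50.7 after acute and 222, 157, 251, 116 and 172 after chronic UVB. Every chronic library lay above every unexposed one. The difference on the log2 scale was 1.54 ± 0.41 (SE, limma adjusted p = 0.00885), and the call held without any single library and under all 12 settings of the fit that were planned. The acute difference was 0.92 ± 0.41 (limma adjusted p = 0.104), and without library 5 it was 1.21 (adjusted p = 0.0321). DESeq2 on the recovered reads called the acute difference (1.04, adjusted p = 0.0425), and edgeR did not. In WT after chronic UVB the values were 221, 33.8, 51.2, 55.8 and 52.5, so that 4 of 5 lay below every NZM library and library 58 lay among the NZM values. NZM exceeded WT by 1.44 ± 0.41 after chronic UVB (limma adjusted p = 0.0211), where 4.29% of all genes were higher. That call was lost without WT library 27, 28, 29 or 59 (adjusted p from 0.0501 to 0.0851), with edgeR (adjusted p = 0.0715) and with only these groups fitted (0.0848). Without the 9 libraries with high hair follicle genes, of which 3 were chronic NZM libraries, the chronic difference in NZM was 1.95 (limma adjusted p = 0.0163) and that between NZM and WT was 1.85 (adjusted p = 0.0186).

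The chronic difference of Aim2 was 0.39 ± 0.43 in iNZM and 0.36 ± 0.43 in WT, neither called, and the response was not shown to differ between NZM and WT (1.18 ± 0.59, limma adjusted p = 0.218) or between iNZM and NZM (-1.15 ± 0.59, adjusted p = 0.485). Of 14 inflammasome partners of Aim2, 0 rose and 0 fell after chronic UVB in NZM, and 6 rose and 0 fell in WT. In WT Pycard, the adaptor, rose by 1.55 ± 0.26 (limma adjusted p = 1.64e-05), Casp8 by 0.72 ± 0.16 (adjusted p = 0.000624) and Il1b, an inflammasome product, by 3.24 ± 0.91 (adjusted p = 0.00541). The chronic response of Pycard, NZM minus WT, was -1.61 ± 0.35 on the log2 scale (limma adjusted p = 0.00567). Zbp1, a sensor of left-handed nucleic acids that is also on the interferon list, was the partner called between iNZM and NZM, at -3.56 ± 0.72 after acute and -4.73 ± 0.72 after chronic UVB (limma adjusted p = 0.0124 and 0.000194). Of 11 genes of cytosolic DNA sensing outside the inflammasome, a list that also holds Zbp1, 3 rose and 0 fell after chronic UVB in NZM, 4 rose and 0 fell in WT, and 2 rose and 2 fell in iNZM. Of all genes 19.0%, 35.3% and 28.9% were called in these 3 comparisons.

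The UVB comparisons ask what each regimen changed within a strain. After acute UVB 1 of 18 member tests was called, Ifi203 in iNZM, differing by -1.75 ± 0.57 on the log2 scale (SE, limma adjusted p = 0.0223). Its unexposed values were 150.3, 187, 195 and 174 and all 5 values after acute UVB lay below them. The call was lost without iNZM acute library 6 or 49 or unexposed library 39 (limma adjusted p from 0.0552 to 0.117), and the difference was -0.65 (adjusted p = 0.282) without the libraries with high hair follicle genes, which include 6 and 49. By edgeR and DESeq2 on the recovered reads it was -1.24 (adjusted p = 0.0844 and 0.0596), and with only these 2 groups in the limma fit the adjusted p was 0.123. Called genes made up 21.4% of all genes in NZM, 25.2% in iNZM, where 12.4% were lower, and 21.7% in WT.

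Ifi204 and Ifi202b had higher means after acute UVB in NZM and WT without being called in the main fit. In NZM, Ifi204 went from 179, 158, 129, 809 and 651 to 1579, 767, 1270.1, 2042 and 216, differing on the log2 scale by 1.69 ± 0.69 (SE, limma adjusted p = 0.0774). Library 5, with high hair follicle genes, had the lowest acute value by far. Without that library the difference was 2.21 (limma adjusted p = 0.0203), and without unexposed library 34 it was 2.06 (adjusted p = 0.0393). DESeq2 on the recovered reads called Ifi204 in NZM (1.61, adjusted p = 0.0433), and edgeR did not. With sample quality weights limma called Ifi204 (2.23, adjusted p = 0.000524) and Ifi202b (1.22, adjusted p = 0.00504) in NZM. In WT, Ifi204 differed by 1.56 ± 0.73 (limma adjusted p = 0.131) and Ifi202b by 1.43 ± 0.55 (adjusted p = 0.0568). Sample quality weights gave both a call there (limma adjusted p = 0.011 and 0.00217). A pseudocount of 8 and quantile normalization gave Ifi202b one as well (limma adjusted p = 0.0479 and 0.0483). The Ifi202b difference in WT was called without unexposed library 44 (1.70, limma adjusted p = 0.0362) or 45 (1.84, adjusted p = 0.0231), and so was that of Mndal without library 45 (1.49, adjusted p = 0.0415). With the 9 libraries with high hair follicle genes left out of the fit, 7 of 18 member tests were called after acute UVB instead of 1, among them Ifi202b in all 3 strains, at 1.23 in NZM, 1.37 in iNZM and 1.43 in WT (limma adjusted p = 0.0149, 0.0212 and 0.00451). In this fit 28.4% of all genes were called after acute UVB in NZM, 21.5% in iNZM and 28.9% in WT. The other 4 were Ifi204 in NZM (2.21) and WT (1.56), Ifi205 in NZM (1.68) and Aim2 in NZM (1.21), all higher after UVB.

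After chronic UVB 7 of 18 member tests were called, where 19.0% of all genes were called in NZM, 28.9% in iNZM and 35.3% in WT. Lower genes made up 9.78%, 15.7% and 16.8% of all genes, and higher genes 9.20% in NZM. Ifi205 fell in iNZM and in WT. Its values in iNZM were 509.9, 810.0, 419.9 and 900.0 without UVB and 77.2, 81.3, 192, 39.5 and 172 after it, differing by -2.69 ± 0.68 on the log2 scale (SE, limma adjusted p = 0.00455). In WT they were 275, 331, 1436 and 1676 without UVB and 144, 75.0, 258, 83.1 and 96.3 after it, a difference of -2.53 ± 0.68 (limma adjusted p = 0.00411). Neither pair of groups overlapped, and both calls held without any single library and without the 9 libraries with high hair follicle genes (-2.36 and -2.53). Once each library's hair follicle score entered the fit, an alternative chosen after seeing the data, the iNZM difference was -1.67 (limma adjusted p = 0.0921). In NZM Ifi205 differed by -0.49 ± 0.64 (adjusted p = 0.63), and the response was not called as different between NZM and WT (2.04 ± 0.94, limma adjusted p = 0.173) or between iNZM and NZM (-2.20 ± 0.94, adjusted p = 0.333). DESeq2 on the recovered reads did call the first of these, at 2.52 (adjusted p = 0.0343).

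In iNZM Ifi202b, Ifi203 and Ifi204 fell as well after chronic UVB, with log2 differences of -1.46 ± 0.55, -1.48 ± 0.57 and -1.89 ± 0.73 (limma adjusted p = 0.0417, 0.0487 and 0.0491), and Ifi202b fell in NZM (-1.43 ± 0.51, adjusted p = 0.0464). These 4 calls lay close to the threshold. With edgeR on the recovered reads the adjusted p was 0.0819 for Ifi202b and 0.0693 for Ifi203 in iNZM and 0.0753 for Ifi202b in NZM. In iNZM each was lost on leaving out any of 7 of the 9 libraries, with adjusted p from 0.0542 to 0.162, and held only without chronic library 22 or 23 for Ifi202b, 57 or 23 for Ifi203 and 57 or 25 for Ifi204. In NZM the Ifi202b call was lost on leaving out any of 8 of 10 libraries (0.0595 to 0.145) and held without chronic library 54 or 18. Without the 9 libraries with high hair follicle genes the differences in iNZM were -1.18, -0.61 and -1.67 for Ifi202b, Ifi203 and Ifi204, and -0.40 for Ifi202b in NZM (limma adjusted p from 0.0837 to 0.677). Aim2 in NZM, described above, was the member that rose.

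Markers of several cell types moved with the members after chronic UVB. In iNZM 12 of 14 macrophage markers and 8 of 10 monocyte markers were lower and 0 were higher, and the summed macrophage markers per library were 9131 to 23739 without UVB and 1235 to 5417 after chronic UVB. In WT 4 and 3 were lower, with sums of 8846 to 64205 without UVB and, after it, 3725 to 17329. In NZM 1 macrophage and 1 monocyte marker were higher and 0 lower, with sums of 4236 to 6549 without UVB and, after it, 3949.6 to 24024. Of 13 dendritic and Langerhans cell markers 11 were lower in iNZM, 7 in WT and 7 in NZM, and of 14 T and NK cell markers 12, 5 and 5, with 1 higher in WT. Of 9 neutrophil markers 6 were higher and 2 lower in WT, and 3 were lower in iNZM. Of 8 fibroblast markers 7 were lower in iNZM and 5 in WT, while 3 were higher in NZM. Hair follicle genes were higher in 18 of 28 in NZM, 21 in iNZM and 0 in WT. With the macrophage score as a covariate the chronic differences of Ifi202b, Ifi203, Ifi204 and Ifi205 in iNZM were 0.13, 0.22, 0.45 and -0.35, and none was called. That of Ifi205 in WT was -1.10 (limma adjusted p = 0.00385), that of Ifi202b in NZM -2.03 (3.93e-05) and that of Aim2 in NZM 1.28 (0.0119). This covariate was chosen after seeing the data. Its markers themselves differed after chronic UVB, so it can remove part of a UVB difference by construction. The part of cell makeup in these differences was not tested.

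**Figure D4:**
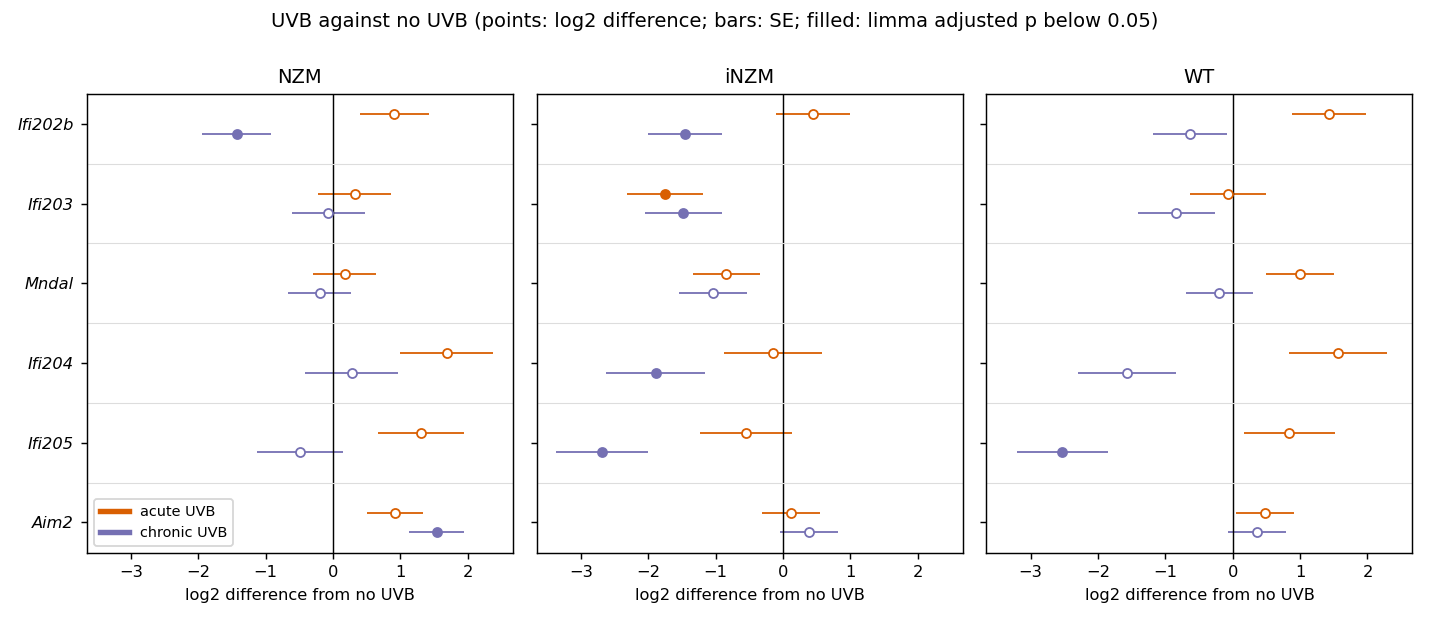
Log2 differences of acute and chronic UVB from no UVB in each strain for the 6 members. Points are limma estimates, bars are SE, and filled points have an adjusted p below 0.05. Ifi205 is filled below 0 after chronic UVB in iNZM and WT, and Aim2 is filled above 0 after chronic UVB in NZM.

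Differences of the UVB responses between strains were tested directly in 4 comparisons, and limma called 0 of 24 member tests, where 0.115% and 7.58% of all genes were called for NZM minus WT after acute and chronic UVB and 0.00522% and 0.00% for iNZM minus NZM. Of these 24 tests 4 had an unadjusted limma p below 0.05, edgeR called 0 and DESeq2 1. The acute response of Ifi203 differed by -2.07 ± 0.79, iNZM minus NZM (limma adjusted p = 0.778). Those of Ifi204 and Ifi205 to chronic UVB differed by -2.17 ± 1.01 and -2.20 ± 0.94 (limma adjusted p = 0.4 and 0.333).

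The other genes of the cluster, 7 of 11 listed names being rows of the table, included 3 with most iNZM libraries at 0. Ifi213 had values of 28.0, 5.02, 23.1, 96.5 and 41.7 in unexposed NZM, and 7.03 to 228 and 9.85 to 169 after acute and chronic UVB. In iNZM 13 of 14 libraries were at 0 and the last at 1.01, and in WT the highest was 5.99. It was called lower in iNZM than in NZM under all 3 regimens (limma adjusted p = 0.0024, 1.52e-05 and 6.53e-05) and lower in WT than in NZM (adjusted p = 3.61e-05, 1.23e-05 and 0.000105). Only NZM libraries reached the filter's value of 10, so Ifi213 was tested only because of the strain where it was high. That selection set the direction of these calls, and their p-values add no support to the values themselves. Ifi214 was at 0 in 13 of 14 iNZM libraries, between 0 and 18.2 in NZM and up to 52.3 in WT. Ifi208 was at 0 in all 5 iNZM libraries after chronic UVB, against 97.5, 7.16, 25.6, 9.25 and 41.1 in NZM (limma adjusted p = 6.53e-05), and ranged from 4.55 to 8.98 in WT. A count of 0 allows up to 3 reads and covers counting error only.

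Ifi203-ps, a pseudogene of the cluster, was lower in iNZM than in WT under all 3 regimens, at 7.97 ± 8.30 (SD, n = 5) against 78.8 ± 16.0 (SD, n = 5) after acute UVB (limma adjusted p = 0.000136), and was not called between iNZM and NZM. Ifi209, which RefSeq also names Pyhin1, was 216 ± 131 (SD, n = 5) in NZM, 35.8 ± 35.4 (SD, n = 5) in iNZM and 137 ± 69.6 (SD, n = 5) in WT after acute UVB, and was lower in iNZM than in WT there (-2.76 ± 0.79, limma adjusted p = 0.00966). Its difference from NZM was -3.19 ± 0.79 (limma adjusted p = 0.0946). Mnda, the table's name for Ifi211, was higher in NZM than in WT after chronic UVB by 2.30 ± 0.66 (limma adjusted p = 0.0232), and fell after chronic UVB in iNZM and WT. Ifi207 was lower in iNZM than in WT after acute and chronic UVB, with log2 differences of -2.92 ± 0.69 and -2.01 ± 0.69 (limma adjusted p = 0.00201 and 0.0438).

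**Figure D5:**
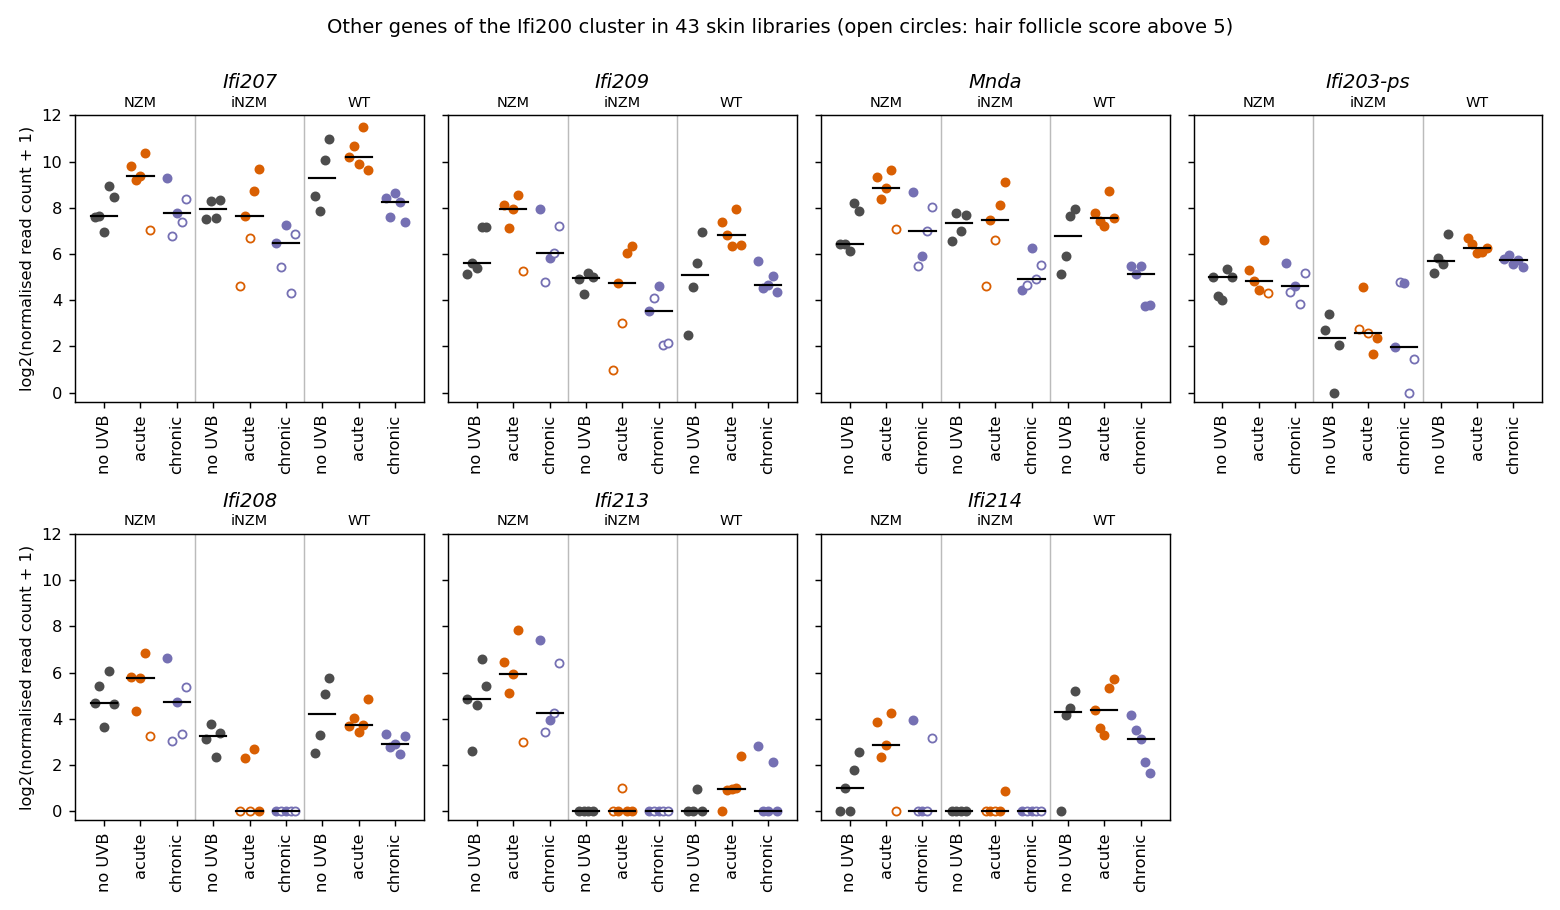
log2(normalised read count + 1) of 7 other genes of the Ifi200 cluster in each library, by strain and UVB regimen. Points are libraries, open circles those with a hair follicle score above 5, and black lines are medians. Ifi213 is present in every NZM library and at or near 0 in iNZM and WT, and Ifi214 is at or near 0 in iNZM.

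Among themselves the members formed 2 close pairs, described by Pearson's r of log2(value + 1) over the 43 libraries, which share strain, regimen and cell makeup. Ifi203 and Mndal had r = 0.931, Ifi204 and Ifi205 had r = 0.906, and Ifi203 with Ifi205 had 0.552. With the group means removed, r was 0.891, 0.918 and 0.832, so the last pair moved together within groups more than over all libraries. Aim2 had r between -0.162 and 0.134 with the other 5 over all libraries, and between 0.452 and 0.626 with the group means removed. The 3 genes most like each member over all tested genes, by the same measure, differed between the pairs. For Ifi203 these were Sp100 (0.958), a nuclear body protein gene, Lgals3bp (0.936) and H2-T24 (0.935), and for Mndal Bst2 (0.954), which encodes tetherin, Sp100 (0.943) and Ifi203. For Ifi204 they were Ccl6 (0.959) and Ccl9 (0.928), chemokine genes of myeloid cells, and Ifi207 (0.939), and for Ifi205 RP23-159L13.1 (0.946), Ccl9 (0.932) and Ccl6 (0.925). Ifi202b was most like Ifitm3 (0.94), an antiviral membrane protein gene, Gda (0.935) and Aida (0.886). For Aim2 the highest were Adam33 (0.718), Spink7 (0.713) and RP24-258B3.4 (0.71).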

How the data were processed

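The deposited table holds 1 signal value per gene and library, which the authors made, per the submitters' processing notes, with the tools STAR, HTSeq and DESeq2, on the mouse build mm10. Versions, gene annotation, strand setting and filters are not given in the sources used here. The values are gene read counts divided by 1 size factor per library (0.6735 to 1.7503), and 100% came out as whole reads within 0.01 once multiplied back. Libraries held 18493566 to 37756660 reads, and no 2 libraries of a group were alike within sampling noise.

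Genes with a value of 10 or more in 4 or more libraries were kept. Values entered limma 3.58.1 (R 4.3.3, with its mean-variance trend) as log2 with a pseudocount of 1, with 9 group means over 43 libraries and Benjamini-Hochberg adjustment over 19170 genes. The fit was tested on simulated data. The recovered reads were also tested with edgeR 4.0.16 and, separately, DESeq2 1.42.0. Further alternatives were other pseudocounts, filters, scalings and weights, a term for samples numbered 46 or above, fits of the compared groups only, and leaving out each library. Ratios of members used exact permutation tests (Python 3.11.15, numpy 2.4.6, pandas 2.3.3). Upstream windows were aligned with biopython 1.88, and figures drawn with matplotlib 3.10.9. All 6 members, the cluster genes in the table, up to 4 genes per list with the smallest adjusted p, Ifnar1, and the 3 genes most like each member (predicted models and immune receptor segments left out) were named. The members and lists were chosen with earlier results of these data known.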

Additional observations from a re-analysis of the deposited data

Results flagged for a closer look

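In the 54 sets of values that 6 members and 9 groups give, 4 had a library set apart from the rest by more than Dixon's 95% limit, and chance alone gives about 1 in 20. Ifi202b in NZM after acute UVB was lowest in library 5, at 195.9, while the other 4 ranged from 521 to 648. That library had a hair follicle score above 5. In WT after acute UVB library 52 was highest for both Ifi204, at 3493.3, and Ifi205, at 2751.6, against at most 1807 and 1167 in the other 4. Aim2 in WT after chronic UVB was highest in library 58, at 220.5, against 33.8 to 55.8 in the other 4. Without library 58 iNZM exceeded WT in Aim2 after chronic UVB (1.24, limma adjusted p = 0.0274), a difference not called with it (0.80 ± 0.41, adjusted p = 0.195). The differences of UVB responses between strains, 24 in all, passed the threshold in 0 cases by limma.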

How the results depend on the processing

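The members called numbered 1 for acute UVB, 7 for chronic UVB, 3 for NZM against WT, 4 for iNZM against NZM, 8 for iNZM against WT and 0 for differences of response. TMM scaling, a filter at 50 and a pseudocount of 0.5 left these counts as they were. Counts that moved by over 1.5 times follow. With a pseudocount of 8 there were 2 for acute UVB. With no filter there were 4 for chronic UVB. With quantile normalization there were 2 for acute UVB and 4 for chronic UVB. With only the compared groups fitted there were 0 for iNZM against NZM and 0 for acute UVB. With a term for samples numbered 46 or above there were 2 for iNZM against NZM. With sample quality weights there were 6 for NZM against WT, 9 for acute UVB and 1 for differences of response. At a threshold of 0.01 there were 1 for NZM against WT, 1 for iNZM against NZM, 0 for acute UVB and 3 for chronic UVB. With edgeR there were 0 for acute UVB. With DESeq2 there were 5 for NZM against WT, 2 for acute UVB and 1 for differences of response. With the hair follicle score in the fit there were 5 for NZM against WT, 7 for acute UVB, 3 for chronic UVB and 4 for differences of response. Without the 9 libraries with high hair follicle genes there were 1 for iNZM against NZM, 7 for acute UVB and 4 for chronic UVB. With the macrophage score as a covariate there were 6 for acute UVB, 4 for chronic UVB and 1 for differences of response. With the interferon-stimulated gene score as a covariate there were 7 for NZM against WT, 2 for iNZM against NZM, 2 for acute UVB, 4 for chronic UVB and 2 for differences of response. Leaving out 1 library at a time gave 2 to 4 for NZM against WT, 2 to 4 for iNZM against NZM, 7 to 9 for iNZM against WT, 0 to 4 for acute UVB, 3 to 7 for chronic UVB and 0 to 0 for differences of response. The covariates other than sample number, and the fit without 9 libraries, were chosen after seeing the data. The cause of these shifts was not tested.

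Differences that changed sign under a setting were, on the log2 scale, as follows. The fits with the hair follicle, macrophage and interferon scores covered all comparisons. For these fits only the 23 called differences were checked for a change of sign. With quantile normalization they were -0.12 for Mndal (chronic UVB response, NZM against WT) and 0.25 for Ifi202b (chronic UVB response, iNZM against NZM). With a term for samples numbered 46 or above they were 0.00 for Mndal (acute UVB in NZM), -0.07 for Ifi204 (chronic UVB in NZM), -0.04 for Aim2 (acute UVB in iNZM) and -0.09 for Mndal (chronic UVB response, NZM against WT). With sample quality weights they were 0.55 for Ifi202b (iNZM against NZM, chronic UVB), 0.06 for Ifi203 (chronic UVB in NZM), 0.48 for Ifi204 (acute UVB in iNZM) and 0.09 for Ifi205 (acute UVB in iNZM). Under that setting they also were 0.25 for Ifi203 (acute UVB in WT), 0.03 for Mndal (chronic UVB in WT), -0.10 for Mndal (chronic UVB response, NZM against WT) and 0.85 for Ifi202b (chronic UVB response, iNZM against NZM). With edgeR they were -0.14 for Mndal (NZM against WT, no UVB), -0.23 for Ifi204 (iNZM against NZM, no UVB), 0.01 for Ifi203 (chronic UVB in NZM) and 0.56 for Ifi204 (acute UVB in iNZM). Under that setting they also were 0.09 for Ifi205 (acute UVB in iNZM) and 0.04 for Ifi202b (chronic UVB response, iNZM against NZM). With DESeq2 they were -0.14 for Mndal (NZM against WT, no UVB), -0.22 for Ifi204 (iNZM against NZM, no UVB), 0.01 for Ifi203 (chronic UVB in NZM) and 0.56 for Ifi204 (acute UVB in iNZM). Under that setting they also were 0.09 for Ifi205 (acute UVB in iNZM) and 0.03 for Ifi202b (chronic UVB response, iNZM against NZM). Without the 9 libraries with high hair follicle genes they were 0.03 for Ifi203 (NZM against WT, chronic UVB), 0.05 for Ifi205 (iNZM against WT, chronic UVB), 0.42 for Ifi203 (chronic UVB in NZM) and 0.16 for Mndal (chronic UVB in NZM). Under that setting they also were 0.92 for Ifi204 (acute UVB in iNZM), 0.56 for Ifi205 (acute UVB in iNZM), 0.14 for Ifi202b (acute UVB response, iNZM against NZM) and 0.23 for Ifi202b (chronic UVB response, NZM against WT). With the macrophage score as a covariate they were 0.13 for Ifi202b (chronic UVB in iNZM), 0.22 for Ifi203 (chronic UVB in iNZM) and 0.45 for Ifi204 (chronic UVB in iNZM). With the interferon-stimulated gene score as a covariate they were 0.26 for Mndal (iNZM against NZM, acute UVB), 0.48 for Ifi202b (iNZM against WT, acute UVB), 2.28 for Ifi204 (iNZM against WT, acute UVB) and 0.48 for Mndal (iNZM against WT, acute UVB). Under that setting they also were 0.18 for Ifi203 (iNZM against NZM, chronic UVB), 0.40 for Mndal (iNZM against NZM, chronic UVB), 0.44 for Ifi202b (iNZM against WT, chronic UVB) and 0.49 for Ifi203 (iNZM against WT, chronic UVB). The rest were 1.27 for Mndal (iNZM against WT, chronic UVB). Leaving out single libraries changed the sign of 19 differences that were not called, with ranges of -0.17 to 0.51 for Mndal (acute UVB in NZM), -0.07 to 0.86 for Ifi203 (acute UVB response, NZM against WT), -0.29 to 0.65 for Ifi204 (acute UVB response, NZM against WT) and -0.74 to 0.47 for Ifi204 (acute UVB in iNZM). Further such ranges were -1.06 to 0.08 for Ifi205 (acute UVB in iNZM), -0.31 to 0.39 for Ifi203 (acute UVB in WT), -0.15 to 0.3 for Mndal (NZM against WT, chronic UVB) and -0.59 to 0.04 for Ifi202b (iNZM against NZM, chronic UVB). Further such ranges were -0.31 to 0.17 for Ifi203 (chronic UVB in NZM), -0.11 to 0.78 for Ifi204 (chronic UVB in NZM), -0.49 to 0.37 for Mndal (chronic UVB response, NZM against WT) and -0.31 to 0.31 for Ifi202b (chronic UVB response, iNZM against NZM). Further such ranges were -0.53 to 0.03 for Ifi205 (iNZM against WT, chronic UVB), -0.57 to 0.29 for Mndal (chronic UVB in WT), -0.08 to 0.73 for Aim2 (chronic UVB in WT) and -0.25 to 0.6 for Mndal (NZM against WT, no UVB). Further such ranges were -0.17 to 0.63 for Aim2 (NZM against WT, no UVB), -0.2 to 0.46 for Ifi204 (iNZM against NZM, no UVB) and -0.56 to 0.31 for Ifi205 (iNZM against WT, no UVB).

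No paired analysis was possible because the sample numbers are unique to each library and the groups share none. Every library held at least 10.6 normalised reads of each member. Groups of 4 or 5 libraries limit the precision, as do the 2 libraries per group left after chronic UVB in NZM and iNZM without those with high hair follicle genes.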
